A study of Mus musculus with 10 samples.

Results

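Cytosolic heat shock proteins were followed through 10 genes, taken as the rows of the deposited table whose identifiers map to the symbols Hspa1a, Hspa1b, Hspa2, Hspa4, Hspa8, Hsph1, Hsp90aa1, Hsp90ab1, Dnajb1 and Hsf1. All 10 were found among the 48526 gene identifiers, and all 10 reached the mean of at least 10 normalized counts that 17007 genes reached. The RNA came from microdissected dentate gyrus, the hippocampal field that holds the granule neurons, of 8-week-old C57Bl/6 mice. An adeno-associated virus (AAV) of serotype 9 had carried Sox11, a transcription factor of newborn neurons, into the gyrus of both hemispheres of 5 mice, and the same serotype had carried green fluorescent protein (GFP) in 5 controls. Both groups had therefore been injected with virus, so the controls share the injection and the capsid. The promoter that drove the viral genes and the time between injection and dissection were not given in the sources used here.

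Cytosolic chaperones bind unfolded protein chains and release them in cycles driven by ATP. In the Hsp70 cycle a J-domain protein such as Dnajb1 brings the substrate and starts ATP hydrolysis, and an Hsp110 protein such as Hsph1 or Hspa4 exchanges the nucleotide so that the substrate is let go. Some clients pass on to Hsp90, which holds kinases and steroid receptors near their active shape. Hsf1 is the transcription factor that, under heat or protein damage, binds repeats called heat shock elements and raises many of these genes. Neurons hold large amounts of the constitutive forms Hspa8 and Hsp90ab1 and little of the inducible Hspa1a and Hspa1b when unstressed.

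Of the 10 genes, 6 fell in the Sox11 libraries, none rose and 4 did not pass (limma's moderated test over all 17007 genes, Benjamini-Hochberg adjusted p below 0.05). Over all genes tested 9.36% fell and 9.65% rose. Among the 11158 genes with a mean at least that of the lowest of the 10, 12.6% fell. The inducible Hsp70 genes Hspa1a and Hspa1b fell by 41.0% and 44.1%, Hspa2 by 34.3%, Hsph1 by 21.5%, Hspa8 by 13.0% and Hsp90aa1 by 12.3%, each relative to the GFP libraries. The median log2 fold change of the 10 genes was -0.20, beside -0.0063 over all genes tested. Differences are Sox11 minus GFP on the log2(normalized count + 1) scale. In bulk tissue, fewer cells of a type and less RNA per cell cannot be told apart.

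**Figure D1:**
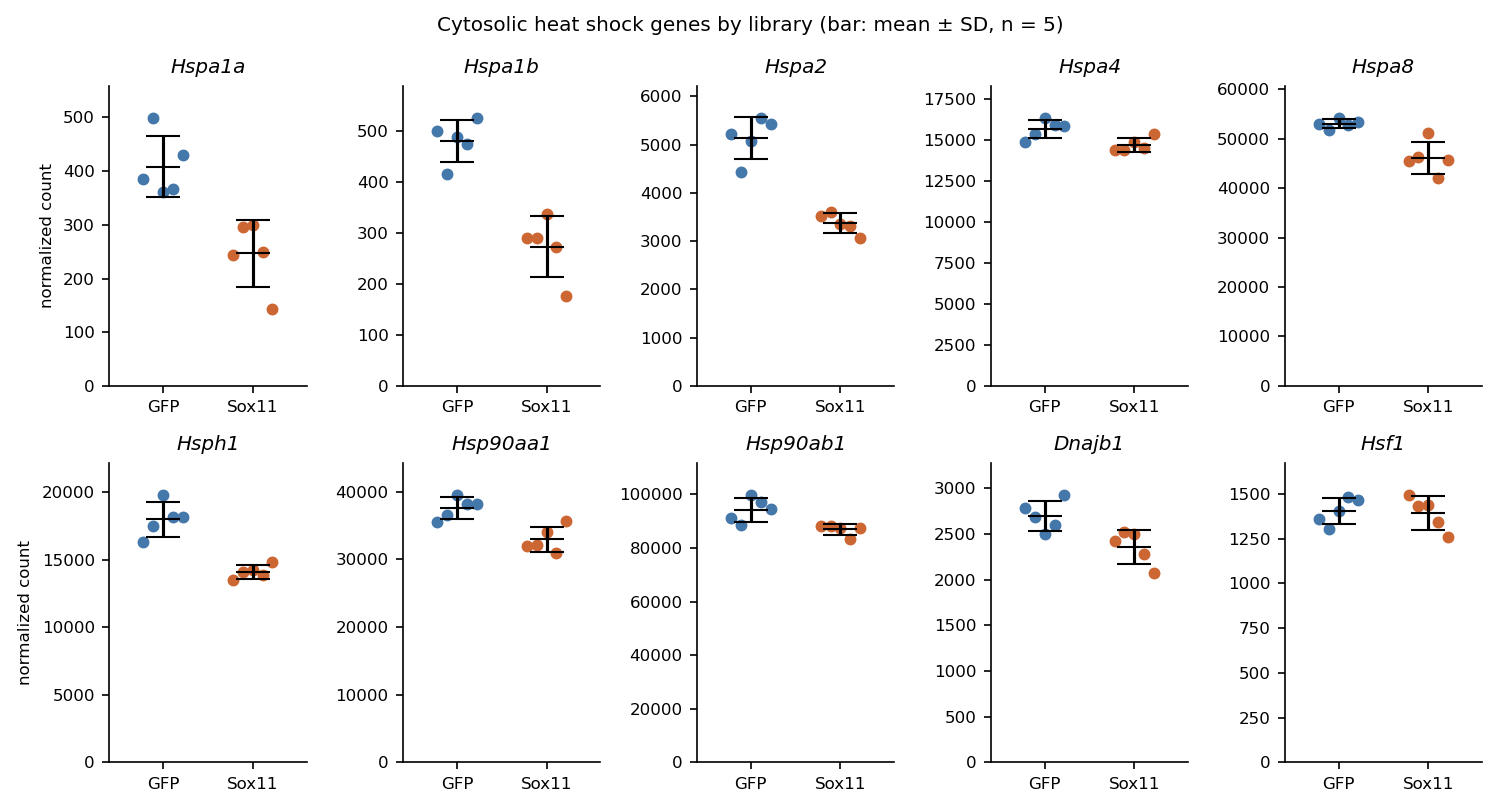
Normalized counts (vertical axes, from 0) of each heat shock gene in the 5 GFP and 5 Sox11 libraries (horizontal axes). Points are libraries, and bars give the mean ± SD; Hspa1a, Hspa1b, Hspa2, Hspa8, Hsph1 and Hsp90ab1 have no overlap between the groups.

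Libraries are named by the numbers of the deposited columns. Between 45100154 and 68769808 reads per library were recovered from the normalized values. Sox11 itself ranged from 1364 to 1634 normalized counts with GFP and from 9803 to 20434 with Sox11. The defining granule neuron markers Prox1, Calb1, C1ql2, Dsp and Plk5 were present in every library, and their summed level was 42437 to 62297 normalized counts with GFP and 44302 to 62767 with Sox11, although 2 of the 5, Plk5 and C1ql2, fell. The call of C1ql2 was lost without GFP 1, 5 or 6, or Sox11 1, 2, 3 or 7 (adjusted p of up to 0.0866), and that of Plk5 held with each library left out. GFP 3 stood apart by 345861 normalized counts of Ttr, a choroid plexus transcript, against at most 1312 in any other library, and all 6 calls held without it. Of 5 astrocyte markers 2 rose, where 9.65% of all genes tested rose. These were Gfap (log2 fold change 0.46, SE 0.08) and Aldh1l1 (0.22, SE 0.05), and both calls held with each library left out. Aqp4, Slc1a3 and Gja1 did not pass. The summed level of the 5, of which Slc1a3 was the most abundant, was 84822 to 98782 with GFP and 91390 to 109267 with Sox11. None of 5 microglial, 5 oligodendrocyte or 5 endothelial markers passed. The part of cell makeup in the heat shock values was not tested.

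The inducible Hsp70 genes lie close to each other in the same orientation on chromosome 17 (GRCm38), Hspa1a (ENSMUSG00000091971) at 34969190 to 34972156 and Hspa1b (ENSMUSG00000090877) at 34956436 to 34959238, both on the minus strand. Their coding stretches are 99.6% identical, with 8 mismatches in 1926 aligned bases. Of the 31-base words of the coding stretch of Hspa1a 88.4% also occur in Hspa1b, but none of the words of its 810-base 3′ untranslated stretch do. Reads from the coding stretch can therefore be split between the copies, counted at both or dropped, depending on a counting setting that the sources used here leave out. The promoters of RefSeq (GRCm38.p6), of which 6 of the 10 genes have an entry, are shown for the genes that fell the most. Each run holds the 250 bases before the RefSeq start site, 5′ to 3′ on the gene's strand, and capitals mark a pair of inverted heat shock units, spelled GAANNTTC or TTCNNGAA, searched on either strand since each is its own reverse complement.
Hspa1a, chr17:34972157-34972406, minus strand: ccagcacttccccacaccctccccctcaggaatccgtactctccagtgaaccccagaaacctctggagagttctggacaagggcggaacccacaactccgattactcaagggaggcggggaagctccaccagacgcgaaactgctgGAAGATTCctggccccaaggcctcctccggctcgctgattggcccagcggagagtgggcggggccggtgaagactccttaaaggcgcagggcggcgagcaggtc
Hspa1b, chr17:34959239-34959488, minus strand: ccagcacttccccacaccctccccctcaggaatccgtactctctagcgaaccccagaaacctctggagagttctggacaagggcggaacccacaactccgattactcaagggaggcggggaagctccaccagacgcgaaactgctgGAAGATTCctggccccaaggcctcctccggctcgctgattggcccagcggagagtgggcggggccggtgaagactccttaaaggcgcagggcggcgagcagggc
Hspa2, chr12:76404120-76404369, plus strand: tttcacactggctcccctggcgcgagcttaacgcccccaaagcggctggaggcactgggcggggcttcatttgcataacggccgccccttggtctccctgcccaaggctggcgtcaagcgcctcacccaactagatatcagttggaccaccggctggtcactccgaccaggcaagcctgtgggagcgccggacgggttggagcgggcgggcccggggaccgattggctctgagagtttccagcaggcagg
Hsph1, chr5:149636316-149636565, minus strand: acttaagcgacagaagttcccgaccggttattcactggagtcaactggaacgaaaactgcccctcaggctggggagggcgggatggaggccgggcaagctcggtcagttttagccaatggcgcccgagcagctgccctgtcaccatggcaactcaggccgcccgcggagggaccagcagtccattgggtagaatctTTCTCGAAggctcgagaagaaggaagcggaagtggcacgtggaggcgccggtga

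The Hspa1a and Hspa1b windows differ at 3 of 250 bases, C44T, T47C and T249G, counted from 1 at the 5′ end with the Hspa1a base first. Both hold the pair GAAGATTC at -104 to -97 from the start site. The Hsph1 window shown holds TTCTCGAA at -54 to -47, and its other RefSeq start, further upstream, has the same letters at -33 to -26. No such pair was found in the windows of Hspa2, Hspa4 or Dnajb1. The Hspa2 window, however, lies mostly within the annotated gene, which starts at 76404176. A Dnajb1 window, at 83608298 to 83608547, lies wholly within the annotated gene, which starts at 83608193. The Hsph1 windows lie partly within the annotated gene. In such windows an absent pair says little of the sequence upstream of the gene. Of all 32851 RefSeq promoter windows of this length 12.8% hold a pair, and 0.466% hold the longer form of 3 alternating units, in which a further GAA or TTC follows the pair after 2 bases and which none of the windows of these genes held. A match of letters is a description and says nothing of binding.

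Hspa1a encodes one of the stress-inducible Hsp70 proteins. It had 385, 499, 362, 367 and 431 normalized counts in GFP 1, 3, 4, 5 and 6, and 245, 295.8, 299.6, 249.6 and 144 in Sox11 1, 2, 3, 6 and 7. Every Sox11 library lay below every GFP library, GFP 3 stood highest and Sox11 7 lowest. The log2 fold change was -0.76 (SE 0.19, 95% interval -1.17 to -0.35, adjusted p = 0.0156). Its lowest read count in any library was 136, the lowest of the 10 genes. Of its exonic bases 19.0% lie opposite Gm20481, which had at most 5.32 normalized counts.

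Hspa1b, the second inducible copy, had, in the same order, 499.6, 415, 487, 474 and 524 normalized counts with GFP, and 291, 289.8, 336, 273 and 176 with Sox11. The groups did not overlap, and Sox11 7 was again the lowest. The log2 fold change was -0.84 (SE 0.15, 95% interval -1.17 to -0.51, adjusted p = 0.00308). The sum of both copies does not depend on how shared reads were split between them, but does on whether they were dropped or counted at both. This sum averaged 889 normalized counts with GFP (SD 47.3, n = 5) and 519.7 with Sox11 (SD 121, n = 5). The log2 difference was -0.81 (SE 0.18). An exact permutation test, two-sided, gave p = 0.00794, the smallest possible with 5 libraries against 5. Without Sox11 7 this difference was -0.64. Hspa1a made up 42.6% to 54.6% of the sum in the GFP libraries and 45.03% to 50.5% in the Sox11 libraries, with GFP 3 at the top.

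**Figure D2:**
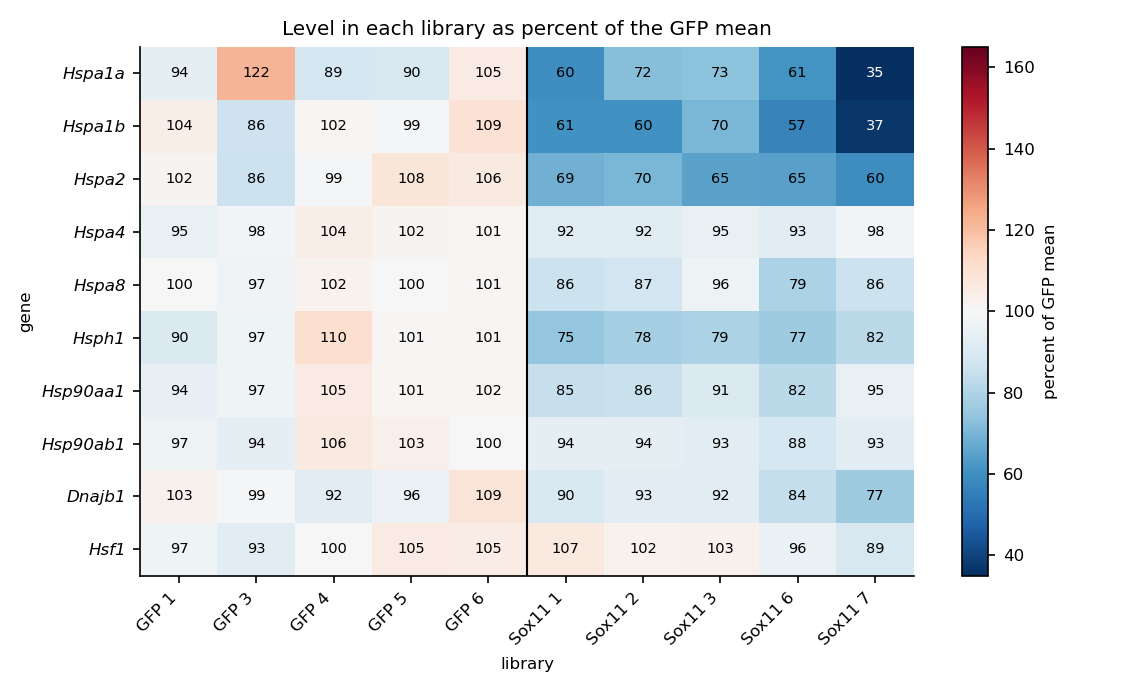
Level of each heat shock gene (rows) in each library (columns) as a percentage of that gene's mean over the GFP libraries, printed in the cells and coloured around 100. Hspa1a and Hspa1b stand at 35.2% and 36.6% in Sox11 7, while Hspa4 stands at 98.2% there.

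Hspa2 (ENSMUSG00000059970, chromosome 12, 76404176 to 76406938, plus strand) encodes an Hsp70 protein best known for its role in sperm development. It had 5228, 4431, 5067, 5547 and 5434 normalized counts in GFP 1, 3, 4, 5 and 6, and 3523, 3610.2, 3357, 3321 and 3063 in Sox11 1, 2, 3, 6 and 7. The highest Sox11 library lay well under the lowest GFP library, GFP 3. The log2 fold change was -0.61 (SE 0.07, 95% interval -0.75 to -0.46), with the lowest adjusted p of the 10 genes, 0.000175. Practically all of its sequence is its own, since 99.9% of its 31-base words occur in no other gene.

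Hspa8 (ENSMUSG00000015656, chromosome 9, 40800984 to 40810087, plus strand) encodes Hsc70, the constitutive Hsp70 that also strips clathrin from vesicles. Its normalized counts, in the order used above, were 52989, 51673.5, 54162, 52810.2 and 53446 with GFP and 45584, 46329.6, 51157.5, 42107 and 45732 with Sox11. The groups did not overlap, but Sox11 3 came close to GFP 3, and the spread was wider with Sox11 (SD 3238) than with GFP (SD 914). The log2 fold change was -0.20 (SE 0.05, adjusted p = 0.0238). Leaving out GFP 4, GFP 6 or Sox11 1 ended the call, at adjusted p values between 0.0511 and 0.0562, and so did quantile normalization (log2 fold change -0.11, adjusted p = 0.227). Only 56.5% of its words are its own, and the gene model Gm15459, which shares 38.6% of them, had at most 0.353% of its normalized count in any library. A further 6.09% of its exonic bases are also annotated to small nucleolar RNA genes, which are listed at 0.

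Of the Hsp110 genes 1 passed and 1 did not. Hsph1 (ENSMUSG00000029657, chromosome 5, 149614287 to 149636376, minus strand), an exchange factor that is itself heat-inducible, had 16294, 17497, 19838, 18182 and 18216 normalized counts in GFP 1, 3, 4, 5 and 6, and 13505, 14076, 14288, 13848 and 14845 in Sox11 1, 2, 3, 6 and 7. The groups did not overlap, and the log2 fold change was -0.35 (SE 0.05, adjusted p = 0.00142). Hspa4 (ENSMUSG00000020361, chromosome 11, 53259814 to 53300457, minus strand), another nucleotide exchange factor, ran from 14884.5 to 16328 normalized counts with GFP and from 14404 to 15389.8 with Sox11. These ranges overlap, and its log2 fold change of -0.09 (SE 0.04, 95% interval -0.18 to 0.0019) did not pass (adjusted p = 0.164). Hspa4l, a further gene of this class from the list of related genes, averaged 10216 normalized counts with GFP (SD 704) and 7439.9 with Sox11 (SD 253), with no overlap, and fell by 0.46 in log2 terms (SE 0.05, adjusted p = 0.000240).

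**Figure D3:**
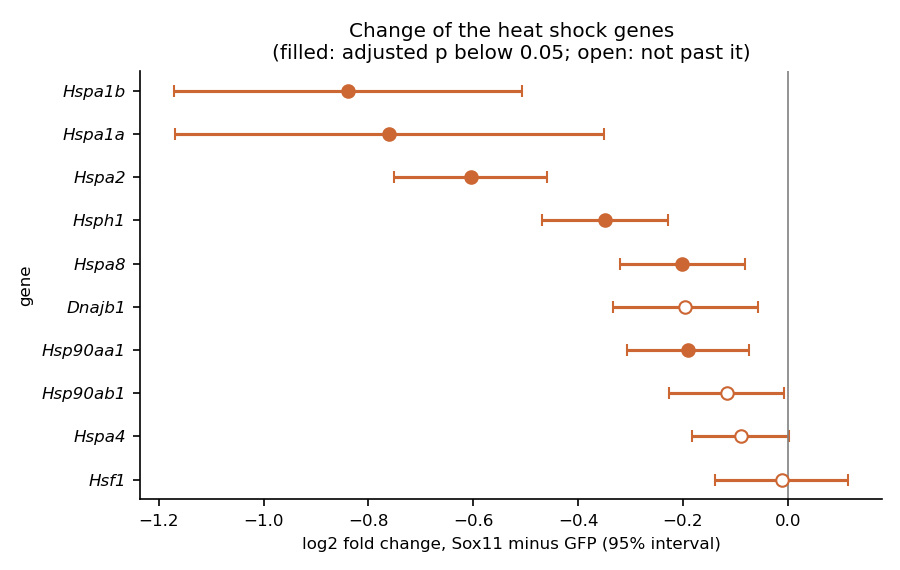
Log2 fold change, Sox11 minus GFP (horizontal axis), of each heat shock gene (vertical axis) with its 95% interval from limma; filled points passed an adjusted p of 0.05. The changes run from -0.84 for Hspa1b to -0.01 for Hsf1, and Dnajb1 is open at an adjusted p of 0.0505.

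Of the Hsp90 genes the inducible form passed and the constitutive form did not. Hsp90aa1 (ENSMUSG00000021270, chromosome 12, 110690605 to 110702728, minus strand), the inducible form Hsp90-alpha, had 35471, 36519.5, 39577, 38122 and 38138 normalized counts with GFP and 31959, 32142, 33997.5, 30956 and 35724 with Sox11. Of the 5 Sox11 libraries 4 lay below the lowest GFP library, and Sox11 7 overlapped the GFP range. The log2 fold change was -0.19 (SE 0.05, adjusted p = 0.0286). It no longer passed when the fit omitted GFP 4, 5 or 6, or Sox11 1, 2 or 6 (adjusted p between 0.0591 and 0.0706), and under quantile normalization the log2 fold change was -0.12 (adjusted p = 0.0988). The gene model Gm12346 shares 46.7% of its words and had at most 0.147% of its normalized count.

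Hsp90ab1 (ENSMUSG00000023944, chromosome 17, 45567775 to 45573271, minus strand), the constitutive Hsp90-beta, was the most abundant of the 10 genes. It had 91017.5, 88657, 99873, 97171.5 and 94586 normalized counts with GFP and 88142, 88314.5, 87244, 83380.4 and 87352 with Sox11. Every Sox11 library lay below every GFP library, with the smallest gap between GFP 3 and Sox11 2. The log2 fold change of -0.12 (SE 0.05, 95% interval -0.23 to -0.0067) did not pass (adjusted p = 0.133), and it was 0.03 under quantile normalization. Groups without overlap were found for 6 of the 10 genes, all lower with Sox11, where 7.29% of all genes tested were lower without overlap and 15.9% had no overlap in either direction.

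Dnajb1 (ENSMUSG00000005483, chromosome 8, 83608193 to 83612653, plus strand), the Hsp40 partner of inducible Hsp70, had 2778, 2681, 2493, 2600.5 and 2928 normalized counts with GFP and 2423, 2516, 2494, 2275 and 2075 with Sox11. The ranges overlapped where Sox11 2 and Sox11 3 lay above GFP 4, the lowest GFP library. Its log2 fold change of -0.20 (SE 0.06, 95% interval -0.33 to -0.06) stayed just short of the threshold (adjusted p = 0.0505). It passed without GFP 4 (adjusted p = 0.0448) or without Sox11 2 (0.0487), and in DESeq2 on recovered reads (0.0238).

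Hsf1 (ENSMUSG00000022556, chromosome 15, 76477422 to 76501913, plus strand), the regulator, had 1362, 1306, 1404, 1480.2 and 1468 normalized counts with GFP and 1496, 1433, 1440.4, 1343 and 1256 with Sox11. Both the highest and the lowest of all 10 libraries carried Sox11. Its log2 fold change was -0.01 (SE 0.06, adjusted p = 0.926), and the 95% interval ran from -9.19% to 8.32% of the GFP level. Its sign turned under several settings, and it was 0.13 (SE 0.06) within the columns numbered 1 to 3 and -0.16 (SE 0.07) within those numbered 4 and above, neither of which passed (adjusted p of 0.2096 and 0.164). Among the other heat shock factors, neither Hsf4 (-0.59, SE 0.20, adjusted p = 0.0629) nor Hsf2 (0.08, SE 0.07, adjusted p = 0.427) passed.

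Levels set per kilobase of exon had one order of means in both groups. In the GFP libraries Hsp90ab1 stood first with 31431 ± 1510 normalized counts per kilobase, then Hspa8 with 12326 ± 213, Hsp90aa1 with 9556 ± 406, Hspa4 with 2835 ± 100.3, Hsph1 with 2478 ± 177, Hspa2 with 1944 ± 166, Dnajb1 with 842 ± 52.0, Hsf1 with 198 ± 10.3, Hspa1b with 171 ± 14.6 and Hspa1a with 138 ± 19.3 (mean ± SD, n = 5). By whole exonic length the constitutive forms thus stood above their inducible partners. Neighbours whose GFP ranges overlapped were Hspa4 and Hsph1, Hsf1 and Hspa1b, and Hspa1b and Hspa1a. In the Sox11 libraries Hsph1 ranged from 1859 to 2043 per kilobase and Hspa4 from 2606 to 2784, without overlap. These levels divide by the whole exonic length. Of the words of Hspa1a and Hspa1b only 34.6% and 32.0% are their own, so their levels would be understated if shared reads were dropped, and their order against Hsf1 cannot be told from these values. Hsp90aa1 and Hspa8 have 48.6% and 56.5% of words of their own, against 86.8% for Hsp90ab1. Dropped reads would understate both more than Hsp90ab1, and the margin of Hsp90ab1 over Hsp90aa1 would then be smaller.

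**Figure D4:**
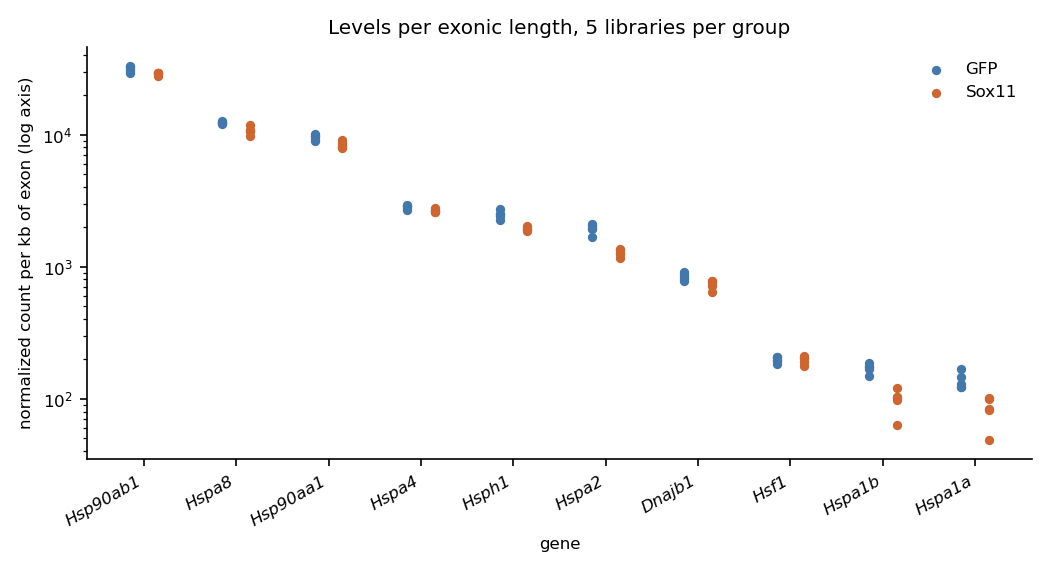
Normalized counts per kilobase of exon (vertical log axis) of the heat shock genes, ordered by their GFP mean; points are the 5 GFP (blue) and 5 Sox11 (orange) libraries. By whole exonic length Hsp90ab1 stands first and Hspa1a last, at GFP means of 31431 and 138 per kilobase.

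Ratios within a library do not change when all its values are divided by 1 factor. Quantile normalization is no such division, and the ratios were not computed under it. A family of 4 ratios was chosen after the values were seen, so their p-values are descriptions and support nothing further. The summed count of the inducible pair equalled 1.57% to 1.79% of the Hspa8 count in the GFP libraries and 0.699% to 1.26% in the Sox11 libraries. This difference of -0.61 in the log2 ratio (SE 0.17) had an exact permutation p of 0.00794 and an adjusted p of 0.0159. Hspa2 stood at 9.69% ± 0.754 of Hspa8 with GFP and at 7.33% ± 0.647 with Sox11 (mean ± SD, n = 5 each), lower in 5 of 5 Sox11 libraries than in any GFP library, with the same exact permutation p and adjusted p. Hsph1 to Hspa8 differed by -0.15 (SE 0.06, exact permutation p = 0.0476, adjusted p = 0.0635). Hsp90aa1 to Hsp90ab1 differed by -0.07 (SE 0.04, exact permutation p = 0.0794, adjusted p = 0.0794). The last pair of ratios did not pass.

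Within the groups the genes did not vary as 1 block. Among the Sox11 libraries, Sox11 7 was the lowest for 5 of the 10 genes, Hspa1a, Hspa1b, Hspa2, Dnajb1 and Hsf1, and the highest for 3 others, Hspa4, Hsph1 and Hsp90aa1. As a description over the 10 libraries, each value was taken as its deviation from its group mean. Hspa4, Hsph1 and Hsp90aa1 then had pairwise Pearson correlations of 0.84 to 0.94. Each pair was also correlated without the 2 libraries farthest from the median of only 1 of its genes. With those libraries chosen by Hspa4, or by Hsph1 for its pair with Hsp90aa1, the correlations were 0.88 to 0.91. Hspa1a, Hspa1b and Dnajb1 had 0.75 to 0.79, but Hspa1a with Hspa1b fell to -0.20 without the 2 libraries farthest for Hspa1a, so that likeness rests on those. Hspa2 was most like Hsf1 among the 10, at 0.85, and without the 2 libraries farthest for Hspa2 this was 0.66. The correlation of Hspa2 with Hspa1b was 0.65, and 0.84 without the 2 libraries farthest for Hspa1b. These trimmed values leave out libraries chosen by different genes, so they cannot be set against each other. The libraries share their scaling factor across genes, so part of any likeness can come from it.

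The wider chaperone network was described by 8 lists with 87 tested genes, of which 28 fell and 4 rose. Beside these counts, 9.36% of all genes tested fell and 9.65% rose, and 12.6% fell among genes with a mean at least that of the lowest of the 10 heat shock genes. Of the 4, Hspb3 reached the minimum mean only through the Sox11 libraries, where it is higher, so its call supports nothing. Without Sox11 3 the calls in these lists went from 32 to 21. Outside the endoplasmic reticulum 15 of 73 tested genes fell and 4 rose, Hspb3 included. Of 19 Hsp70 cochaperones 5 fell, 1 rose and 13 did not pass, with a median log2 fold change of -0.09. Of the 5, Dnaja2 and Dnajb4 both lost their call when GFP 4, 5 or 6, or Sox11 1, 2, 3 or 6, was omitted, which left 3 (adjusted p of up to 0.0738 and 0.113), and Dnajb4 also without GFP 1 or GFP 3. Dnaja4, a J-domain protein, averaged 4103 normalized counts with GFP (SD 206) and 2684 with Sox11 (SD 166), and fell by 0.61 (SE 0.05). Of its exonic bases 44.1% lie opposite Wdr61, and reads of the pair can be told apart only if strand was used in counting. Bag4, an exchange factor of Hsp70, fell by 0.42 (SE 0.08), and Stip1, the adaptor that links Hsp70 to Hsp90, fell by 0.16 (SE 0.04). Dnajb5, another J-domain protein, rose by 0.40 (SE 0.06). Bag3, an Hsf1 target in heat-shocked cells, averaged 358 normalized counts with GFP and 356 with Sox11 (adjusted p = 0.968).

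Of 14 tested Hsp90 cochaperones 6 fell, 1 rose and 7 did not pass, with a median log2 fold change of -0.14. Of the 6 that fell, Cdc37l1, Chordc1 and Cacybp all lost their call when GFP 4 or 5, or Sox11 2 or 3, was omitted (highest adjusted p 0.114), while the other falls held with each library left out. Fkbp5, an immunophilin and a glucocorticoid target, averaged 6025 normalized counts with GFP (SD 449) and 4521 with Sox11 (SD 207), and fell by 0.41 (SE 0.06). Fkbp4, another immunophilin, averaged 5976 with GFP (SD 320.4) and 7007 with Sox11 (SD 217), and rose by 0.23 (SE 0.05). Ppid, a further immunophilin, did not pass (-0.14, SE 0.07, adjusted p = 0.208). Sugt1 fell by 0.30 (SE 0.04) and Tomm34 by 0.44 (SE 0.08). Neither Ahsa1, which stimulates the Hsp90 ATPase (0.02, SE 0.05, adjusted p = 0.835), nor Cdc37, the kinase-loading cochaperone (0.16, SE 0.05, adjusted p = 0.0530), passed.

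**Figure D5:**
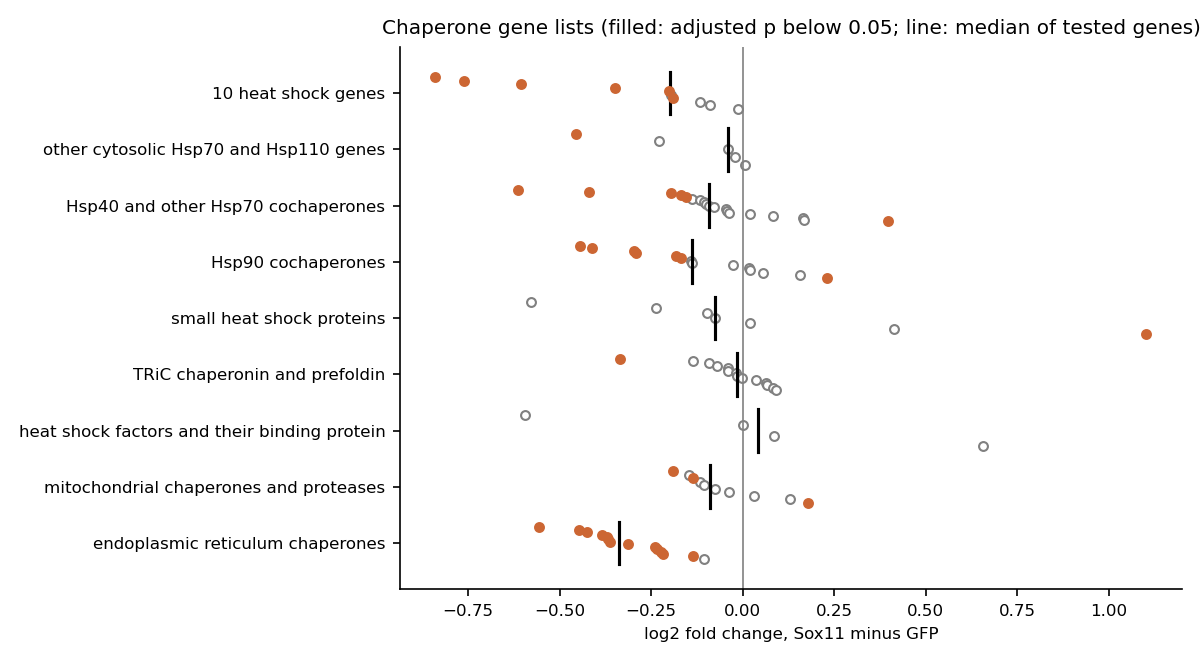
Log2 fold changes, Sox11 minus GFP (horizontal axis), of the tested genes of each chaperone list (rows); filled points passed an adjusted p of 0.05, and the line is the list's median. The endoplasmic reticulum chaperones have 13 of 14 genes lowered, some of them lost with a library left out, and the TRiC chaperonin and prefoldin list has 1 of 14.

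Of 7 tested small heat shock protein genes 1 rose and none fell. That gene, Hspb3, averaged 8.74 normalized counts with GFP (SD 2.45) and 20.2 with Sox11 (SD 6.62), so it reached the minimum mean only through the Sox11 libraries, and its call was lost without Sox11 3 or Sox11 7 (adjusted p of up to 0.0574). Hspb1, a classic Hsf1 target, ranged from 83.4 to 319 normalized counts with GFP and from 81.5 to 231 with Sox11, and Cryab did not pass (-0.08, SE 0.14, adjusted p = 0.779). Of 14 genes of the TRiC chaperonin, which folds actin and tubulin, and of its partner prefoldin, 1 fell, the prefoldin subunit Vbp1 (log2 fold change -0.34, SE 0.08). That share is near the 9.36% of all genes tested that fell.

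Chaperones of other compartments are given for comparison. Of 14 endoplasmic reticulum chaperones 13 fell and none rose, with a median log2 fold change of -0.34, and the Hsp70 and Hsp90 of that compartment, Hspa5 and Hsp90b1, fell by 0.56 (SE 0.06) and 0.42 (SE 0.06). Of the 13, Dnajb11 and Dnajc3 lost their call in 8 of the 10 left-out fits (adjusted p of up to 0.108 and 0.103). Pdia3 lost its call in 4 and Creld2 in 3, while the other falls held with each library left out. Of 10 mitochondrial chaperones and proteases 2 fell and 1 rose. The rise, of the protease subunit Clpp (0.18, SE 0.05, adjusted p = 0.0379), held only without GFP 1 or Sox11 7, with adjusted p values up to 0.0886 in the other left-out fits. Hspd1, the mitochondrial Hsp60, fell by 0.19 (SE 0.04), and Hspa9, its Hsp70, by 0.14 (SE 0.04), a call lost without GFP 5 or Sox11 1 (adjusted p of up to 0.0590). Immediate early genes, which respond to activity and to tissue handling, gave 2 calls among 12 genes, a rise of Ier2 (log2 fold change 0.82, SE 0.26) and a fall of Jun (-0.40, SE 0.12). That share is near the 19.0% of all genes tested that changed. The call of Ier2 was lost when any library but GFP 3 or Sox11 7 was left out, and that of Jun when any but GFP 3, GFP 4 or Sox11 3 was.

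The columns numbered 1 to 3 (GFP 1 and 3, Sox11 1, 2 and 3) and those numbered 4 and above (GFP 4, 5 and 6, Sox11 6 and 7) were also fitted apart, a division known from earlier results of these data. Hspa2 fell in either part, with log2 fold changes of -0.46 and -0.74, and so did Hsph1, with -0.28 and -0.39. Hspa1a had -0.65 and -1.02, and Hspa1b -0.58 and -1.17, and of these only the values in the columns numbered 4 and above passed (adjusted p of 0.0713 for Hspa1a and 0.0605 for Hspa1b in the others). Hspa8 had -0.14 and -0.29, and failed in the columns numbered 1 to 3 (adjusted p = 0.224). Hsp90aa1 had -0.14 and -0.22, and passed in neither part (adjusted p of 0.136 and 0.0809). Whether the parts differ was not tested. With the division as a covariate the 6 calls held and Dnajb1 passed as well (log2 fold change -0.22, adjusted p = 0.0162).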

How the data were processed

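RNA of microdissected dentate gyrus was sequenced from 10 mice, and libraries were made with a stranded poly(A) kit, as the labels' protocols state. Per the submitters' processing notes, the tools included cutadapt 1.9.1, STAR 2.5.2a, featureCounts 1.5.1, DESeq2 1.12.3 and the build GRCm38. The annotation release, strand setting and treatment of multiply mapped reads were not given in the sources used here. A single table was deposited by the authors, holding normalized counts, a signal made by dividing read counts by 1 factor per library, as the values themselves show: 100% of them are whole multiples of a library's value of 1 read, within 0.01 reads. Columns were assigned to groups only, because their numbers are not those of the sample titles.

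The filter kept genes averaging 10 normalized counts or more. The values log2(normalized count + 1) were compared with limma 3.58.1 in R 4.3.3 (trend and robust options, Benjamini-Hochberg adjustment over 17007 genes, threshold 0.05). Exact permutation tests were two-sided. Symbols, coordinates and exonic lengths were read from the GENCODE M21 annotation of GRCm38, where 48058 identifiers had a match. Shared sequence was counted in words of 31 bases against all annotated transcripts. Named genes were the 10 members and, of each other list, up to 4 of lowest p past the threshold, with some others given by role. The members and lists were chosen with earlier results of these data known. In simulated counts for the same 17007 genes, 50 genes were changed at each fold. The test recovered 10% of genes changed 1.2-fold, 62% changed 1.5-fold, 70% changed 2-fold and 94% changed 4-fold, with 4 unchanged genes called. Far fewer genes were changed there than the 3234 called in the data, so these shares need not hold for the data. Alternatives were other pseudocounts, filters, scalings and thresholds, sample weights, limma without its options, count tests on recovered reads (limma-voom, DESeq2 1.42.0 and edgeR 4.0.16), libraries left out, and the division by column number. Other steps used Python 3.11.15 with scipy 1.17.1, pandas 2.3.3, numpy 2.4.6 and matplotlib 3.10.9.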

Additional observations from a re-analysis of the deposited data

Results flagged for a closer look

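Dixon's test at the 95% level was applied to each group of 5 libraries for the 10 heat shock genes, Sox11 and Ttr, and it picks out about 5% of groups by chance. It picked out 4 of 24 groups. Hsp90ab1 stood apart in Sox11 6, at 83380.4 normalized counts below the other Sox11 libraries. Sox11 stood apart in GFP 5, at 1634 normalized counts, and in Sox11 3, at 20434. Ttr stood apart in GFP 3, at 345861.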

How the results depend on the processing

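Hspa1b, Hspa1a, Hspa2 and Hsph1 kept their call with each library left out and under each other pseudocount, filter, scaling and tool tried, and Hspa2 and Hsph1 also at a threshold of 0.01 and within either division by column number. With 1 library left out, between 4 and 6 of the 10 genes fell, none rose, between 2487 and 3285 of all genes changed against 3234, between 21 and 29 genes of the chaperone lists changed against 32, and the difference of the summed Hspa1a and Hspa1b lay between -0.89 and -0.64. At a threshold of 0.01, 3 of the 10 genes, 16 of the list genes and 1537 of all genes passed. Within the columns numbered 1 to 3, 2 of the 10 genes, 11 list genes and 969 genes passed, with fewer libraries, and within those numbered 4 and above 18 list genes. DESeq2 called 9 of the 10 genes lower, adding Hspa4, Hsp90ab1 and Dnajb1. With Hspa1a and Hspa1b summed into 1 row, an alternative chosen after seeing the data, 5 of 9 rows fell. Hsp90ab1 turned to 0.033 under quantile normalization. Hsf1 turned to 0.0026 with sample weights, 0.00045 in limma-voom, 0.13 within the columns numbered 1 to 3, and between -0.038 and 0.025 with a library left out (0.0076 without GFP 5, 0.0047 without GFP 6, 0.00083 without Sox11 6). The cause was not tested. No paired analysis was possible because the column numbers are not the replicate numbers of the labels. Scaling moved the median of all genes by less than 0.1 on the log2 scale. Scaling is built to centre most genes near no change, so this median cannot show how far single genes moved. Quantile normalization moved Hspa8 from -0.20 to -0.11 and Hsp90aa1 from -0.19 to -0.12, and ended both calls. The lowest read count behind a heat shock value was 136, for Hspa1a. The simulation recovered 10% of genes changed 1.2-fold, but it changed far fewer genes than were called in the data, so that share need not hold here. A call that is missing does not show that a gene kept its level.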

Other observations

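For the 3 heat shock genes that varied most within the groups, the genes of most similar pattern were sought among 14245 genes averaging 50 normalized counts or more, by the Pearson correlation of deviations from the group means over the 10 libraries. For Hspa2 these were Lypd1 (0.97), Wbp2 (0.97), Chrd, a secreted antagonist of bone morphogenetic proteins (0.97), Faim2, an inhibitor of Fas-induced cell death (0.96), and Samd1 (0.96). Of them Lypd1, Wbp2, Chrd and Faim2 fell with Sox11, by 0.53, 0.29, 0.41 and 0.49 on the log2 scale. Samd1 did not pass (-0.11, SE 0.07, adjusted p = 0.331 in limma). For Hspa1b they were Mon1a (0.96), Ndufa2 (0.94), Mbd3 (0.94), Thap11 (0.94) and Mrm2 (0.94), none of which passed. For Hspa1a they were Metrn (0.93), Dad1 (0.91), Bckdha (0.91), Tmem141 (0.90) and Sh2b3 (0.89), of which Bckdha rose by 0.17 (SE 0.05, adjusted p = 0.0456 in limma) and the others did not pass. The lists of Hspa1a and Hspa1b share no gene. These are descriptions of 10 libraries that share a scaling factor across genes, without a test.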
